A study of Mus musculus with 21 samples.

Results

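Tibialis anterior muscles collected 3.5 days post-injury (dpi) were compared with muscles collected at 2 dpi, 1.5 days earlier in the same regeneration time course. Samples were chosen by their labelled day of injury, which gave 4 mice at 3.5 dpi and 3 mice at 2 dpi, 7 of the 21 mice in the series and 34741 of its 87822 cells.

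The series followed single-cell transcriptomes of hindlimb muscle in old mice over 6 time points, from uninjured muscle to 7 dpi. All 7 mice were C57Bl/6J females aged 20 months, both groups had notexin injected into both tibialis anterior muscles, and they differed in the day of collection. Whole muscle was digested and dissociated without a sort, and each sample held the cells of 1 mouse captured with the 10x Chromium v3 kit, which counts RNA molecules by unique molecular identifiers (UMIs). Recovery of a cell type therefore also depends on how well it survives digestion and capture, and large multinucleated fibers are recovered only in part. The per-cell tables give a cell type from each of 3 integration methods (Harmony, BBKNN and Scanorama), the corrected UMIs, the genes detected and the percent of UMIs in 11 sets of genes. They hold no values of single genes, so that cell type names could be set against each other and against these percents but not against marker genes.

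The venom toxin notexin breaks down the membranes of myofibers, and most muscle stem cells (MuSCs) and vessels survive it. Neutrophils and inflammatory monocytes enter first and clear debris, and monocytes then mature into macrophages that favor repair. In the same days MuSCs leave quiescence, divide and become myoblasts that later fuse, while fibro-adipogenic progenitors (FAPs), the mesenchymal cells of muscle, expand and lay down matrix.

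The 2 dpi group held 18338 cells, with 10556 in replicate A, 4598 in replicate B and 3184 in replicate C. The 3.5 dpi group held 16403 cells, with 3131, 2631, 6746 and 3895 in replicates A to D. Summed UMIs per sample lay between 33573346 and 70730171. Mean reads per cell were 15035, 34812 and 57751 at 2 dpi and 55808, 67365, 30251 and 34070 at 3.5 dpi. Sequencing saturation was 28.1%, 44.9% and 60.4% against 45.9%, 48.0%, 33.5% and 37.0%, so that the groups overlapped in both measures. Over all cells of a mouse, the median was 3873, 7412 and 9226 UMIs at 2 dpi and 14161, 14614, 8875 and 10696 UMIs at 3.5 dpi.

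2 libraries stood apart. 2 dpi replicate A had the most cells and the fewest reads and UMIs per cell. 2 dpi replicate C had the lowest share of reads in cells, 76.5%, compared with 93.1% and 90.6% in the other 2 dpi mice and 94.2%, 94.5%, 94.8% and 94.7% at 3.5 dpi, and it held few FAPs. Results that rest on either are given with and without them. Across the 21 pairs of the 7 samples, at most 20 barcodes were shared by a pair, 0.296% of its smaller sample. The highest percent was 0.385%, in another pair that shared 15. In all, 138 barcodes occurred in more than 1 sample.

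By Harmony, 32455 cells had a cell type and 2286 had none. The unlabelled share was 11.3%, 7.44% and 4.84% at 2 dpi and 3.39%, 2.85%, 3.99% and 3.77% at 3.5 dpi, with every 2 dpi mouse above every 3.5 dpi mouse (two-sided exact permutation test, p = 0.0286, the smallest that 35 assignments of 7 mice can give). Among unlabelled cells, BBKNN called 95.1%, 87.7% and 83.1% infiltrating monocytes at 2 dpi but 12.3%, 14.7%, 20.1% and 11.6% at 3.5 dpi. Cells missing from the Harmony shares at 2 dpi were thus mostly immune cells by another method. When unlabelled cells were added to the denominators by their BBKNN class, 4 of 10 immune and 6 of 13 non-immune types still passed the test, as without them.

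Both time points were dominated by immune cells, and their total share did not differ detectably. Immune cells made up 82.3%, 80.5% and 61.5% of labelled cells at 2 dpi and 72.5%, 71.7%, 81.6% and 78.6% at 3.5 dpi. The highest and the lowest mouse were both at 2 dpi. Means were 74.7% ± 11.5 (SD, n = 3) and 76.1% ± 4.80 (SD, n = 4), a difference of 1.36 percentage points (exact permutation p = 0.886). This difference had no stable sign, being -5.29 points without 2 dpi replicate C and -0.476 points without 3.5 dpi replicate C.

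Within the immune compartment, 2 types took a larger share at 3.5 dpi and 2 took a smaller one. Cx3cr1_hi M2 macrophages rose by 8.41 percentage points and T cells rose by 2.11 points, whereas inflammatory monocytes fell by 5.50 points and neutrophils fell by 2.08 points. Of 10 immune types, 4 passed the test (limma on arcsine square root shares, adjusted p under 0.05; 40% of the types tested), 2 higher (20%) and 2 lower (20%). The groups did not overlap in 3 types (30% of those tested). The commonest cells, patrolling monocytes and Cx3cr1_lo M2 macrophages, had similar Harmony shares at both time points.

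Cx3cr1_hi M2 macrophages carry high levels of the fractalkine receptor and belong to the tissue-restoring end of the macrophage range. They formed 9.81%, 9.28% and 13.3% of immune cells at 2 dpi and 20.0%, 18.3%, 17.7% and 20.9% at 3.5 dpi. All 3.5 dpi mice lay above all 2 dpi mice, with the highest 2 dpi value in replicate C. Means were 10.8% ± 2.19 (SD, n = 3) and 19.2% ± 1.46 (SD, n = 4), a ratio of 1.78 (limma adjusted p = 8.31e-05; exact permutation p = 0.0286). In this fit limma gave all types 1 common spread, so that a p can be too small for a type that varies more than the others. The rise was called without either library that stood apart and without any other single mouse, but not with Scanorama names (limma adjusted p = 0.347, range over the alternatives 8.98e-06 to 0.347), a method that gave this name to few cells.

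Inflammatory monocytes are blood-derived cells that release inflammatory cytokines in damaged tissue. Their shares were 19.4%, 18.3% and 12.9% at 2 dpi and 9.49%, 10.4%, 12.8% and 12.8% at 3.5 dpi. The groups did not overlap, but 2 dpi replicate C was close to 3.5 dpi replicates C and D. Means were 16.9% ± 3.44 (SD, n = 3) and 11.4% ± 1.70 (SD, n = 4; limma adjusted p = 0.00989, exact permutation p = 0.0286). The call was lost without 2 dpi replicate A (limma adjusted p = 0.0964), 2 dpi replicate B (0.109), 3.5 dpi replicate A (0.0761) or 3.5 dpi replicate B (0.0533). It was also lost with log odds (limma adjusted p = 0.0958), edgeR with TMM (0.0508), all cells as denominator (0.186) and all 21 mice in the fit (0.272; range over the alternatives 0.000194 to 0.272). Set against each other, there were 0.507, 0.507 and 1.03 Cx3cr1_hi M2 macrophages per inflammatory monocyte at 2 dpi and 2.11, 1.76, 1.38 and 1.64 at 3.5 dpi. This ratio was chosen after its values were seen and was not tested.

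Neutrophils, short-lived phagocytes that reach injured muscle first, made up 3.87%, 4.41% and 1.93% of immune cells at 2 dpi and 0.867%, 1.20%, 1.80% and 1.43% at 3.5 dpi. Every 3.5 dpi mouse was below every 2 dpi mouse, again with 2 dpi replicate C nearest to the later group. Means were 3.40% ± 1.30 (SD, n = 3) and 1.32% ± 0.391 (SD, n = 4; limma adjusted p = 0.0210, exact permutation p = 0.0286). Only 19 to 95 neutrophils per mouse were counted at 3.5 dpi. The name was unstable in some mice: BBKNN also called them neutrophils in 17.8%, 88.7% and 91.7% of cases at 2 dpi and in 94.7%, 100%, 13.7% and 45.2% at 3.5 dpi. With a stricter filter on genes, UMIs and mitochondrial percent of the cells, the difference shrank to -0.110 points (limma adjusted p = 0.830). Median genes of neutrophils were 786.5, 708 and 892 at 2 dpi and 1011, 975.5, 1494 and 825.5 at 3.5 dpi. A cutoff of 1000 genes in that filter thus takes out most neutrophils of each 2 dpi mouse and of 3.5 dpi replicates B and D. The smaller difference with it is therefore not a separate test of the fall. The call was also lost with the names of BBKNN (0.255) and Scanorama (0.310), untransformed shares (0.124), edgeR with TMM (0.0542) and without it (0.0722), all cells as denominator (0.114) and all 21 mice in the fit (0.362). Among single mice, it was lost without 2 dpi replicate A (0.0964), 2 dpi replicate B (0.163), 3.5 dpi replicate A (0.0931) or 3.5 dpi replicate B (0.0628; limma adjusted p, range over the alternatives 0.00284 to 0.830).

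T cells, lymphocytes of which a regulatory subset supports muscle repair, were 2.60%, 1.40% and 1.13% of immune cells at 2 dpi and 4.29%, 4.31%, 5.15% and 1.53% at 3.5 dpi. Replicate D at 3.5 dpi fell inside the 2 dpi range, whereas the other 3.5 dpi mice lay above it. Means were 1.71% ± 0.781 (SD, n = 3) and 3.82% ± 1.58 (SD, n = 4; limma adjusted p = 0.0274, exact permutation p = 0.0857). No call remained without 2 dpi replicate B (limma adjusted p = 0.161), 2 dpi replicate C (0.108), 3.5 dpi replicate A (0.0931), B (0.101) or C (0.140), or with BBKNN (0.148) or Scanorama names (0.388). It was also lost with untransformed shares (limma adjusted p = 0.159), log odds (0.139), edgeR with TMM (0.0508) and without it (0.0722), all cells as denominator (0.114) and all 21 mice in the fit (0.776; range over the alternatives 0.00471 to 0.776). Scanorama gave the T cell name to no cell at 3.5 dpi.

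Patrolling monocytes were the largest Harmony type, with 33.3%, 35.3% and 39.5% of immune cells at 2 dpi and 35.4%, 37.6%, 32.1% and 33.8% at 3.5 dpi. The groups overlapped almost fully (36.0% ± 3.19, SD, n = 3, and 34.7% ± 2.33, SD, n = 4; limma adjusted p = 0.726, exact permutation p = 0.600). Cx3cr1_lo M2 macrophages, the counterpart with little of the fractalkine receptor, had 17.0%, 16.8% and 17.7% against 19.4%, 19.2%, 15.5% and 18.8% (limma adjusted p = 0.726). With BBKNN names this type was called higher, with 4.5%, 4.44% and 4.28% against 13.3%, 12.9%, 4.59% and 11.9% (limma adjusted p = 0.0236; range over the alternatives 0.0236 to 0.926). By Harmony, replicate C at 3.5 dpi was the lowest of the 7 and the other 3.5 dpi mice were the highest. Dendritic cells, which present antigen to T cells, had 7.78%, 7.71% and 6.12% against 4.29%, 4.26%, 7.87% and 5.26% (limma adjusted p = 0.237), and passed the test only without 3.5 dpi replicate C, the highest mouse (0.0282; range over the alternatives 0.0282 to 0.855). The remaining immune types, Cxcl10+ monocytes, B cells and natural killer (NK) cells, overlapped between groups, with limma adjusted p between 0.619 and 0.908.

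**Figure D1:**
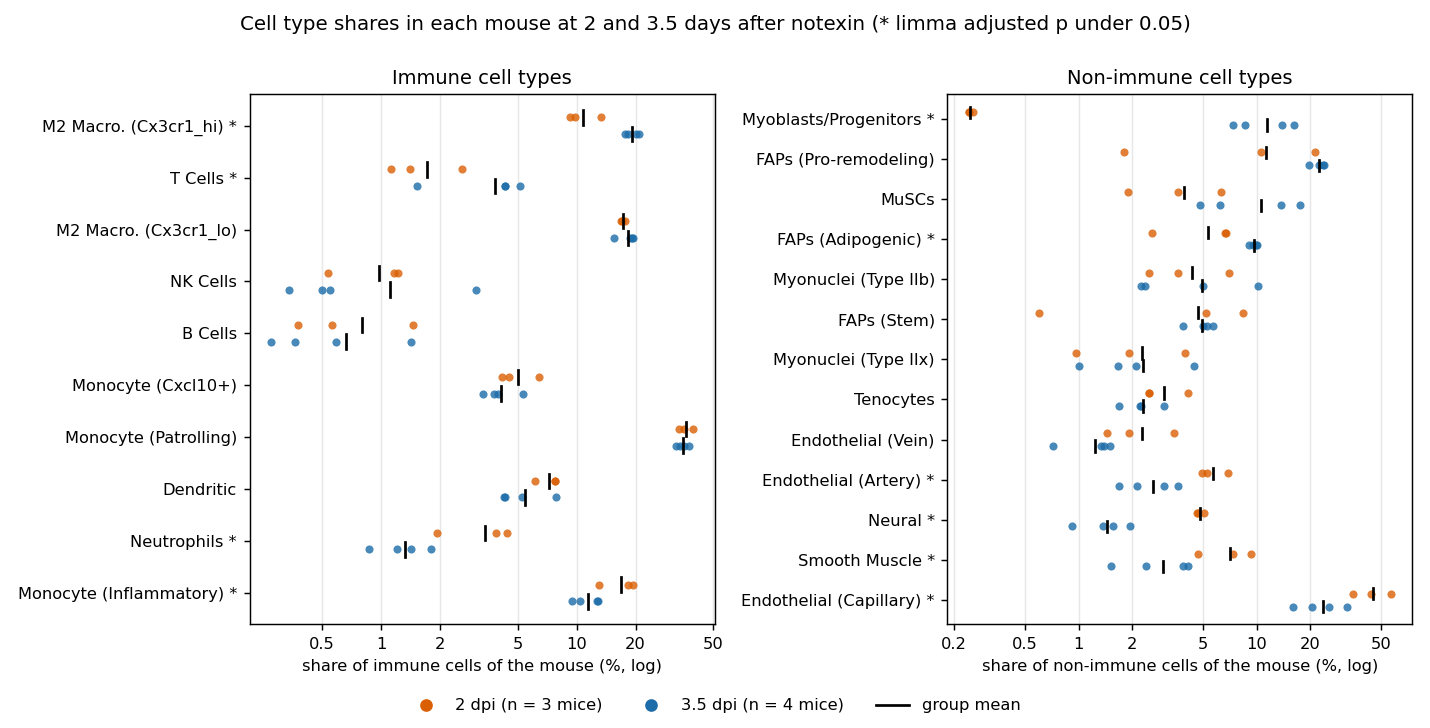
Share of each Harmony cell type among the immune cells (left) or non-immune cells (right) of a mouse, in percent on a log axis, with 1 point per mouse (2 dpi, n = 3; 3.5 dpi, n = 4), black bars at the group means and asterisks at a limma adjusted p under 0.05. Cx3cr1_hi M2 macrophages lay between 17.7% and 20.9% at 3.5 dpi, above all 2 dpi mice, and myoblasts/progenitors between 7.32% and 16.1%, compared with 0.257% in the highest 2 dpi mouse.

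The monocyte names, by contrast, split the time points differently in each integration method. Harmony had no infiltrating monocyte name and used the patrolling one at both time points, whereas BBKNN and Scanorama named most 2 dpi monocytes infiltrating and most 3.5 dpi monocytes patrolling. In BBKNN, infiltrating monocytes were 59.8%, 58.6% and 61.3% of immune cells at 2 dpi and 11.7%, 15%, 12.5% and 12.3% at 3.5 dpi (limma adjusted p = 6.03e-10 with these names). Patrolling monocytes were 1.84%, 2.10% and 9.0% against 37.0%, 41.4%, 29.3% and 30.2% (limma adjusted p = 4.30e-07; range over the alternatives for this type 7.62e-08 to 0.870). Both names separated the groups without overlap, with 2 dpi replicate C highest in patrolling monocytes among the earlier mice.

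Scanorama went further. Infiltrating monocytes were 67.1%, 59.2% and 68.5% of its immune cells at 2 dpi and 4.17%, 4.57%, 6.33% and 4.03% at 3.5 dpi, and patrolling monocytes 1.70%, 2.75% and 7.78% against 84.3%, 80.2%, 73.7% and 81.5%. Its M2 macrophage names were close to unused, with means of 0.661% and 1.26% for Cx3cr1_hi at 2 and 3.5 dpi. Patrolling monocytes in Scanorama at 3.5 dpi therefore took in cells that Harmony named M2 macrophages: 98.4%, 99.1%, 97.9% and 99.0% of the Harmony Cx3cr1_hi M2 macrophages carried that name, compared with 10.2%, 15.4% and 33.9% at 2 dpi.

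Cell by cell, the Harmony patrolling monocytes were 2 different populations to BBKNN. At 2 dpi, 97.2%, 97.2% and 92.0% of them were called infiltrating by BBKNN, and at 3.5 dpi 23.0%, 29.5%, 28.4% and 29.3%. The BBKNN patrolling name was given to 2.77%, 2.64% and 7.88% of them at 2 dpi and 76.8%, 70.1%, 69.5% and 69.4% at 3.5 dpi. The equal Harmony share of patrolling monocytes thus depended on the method, and the difference turned to a rise of 30.2 points with BBKNN names and 75.8 points with Scanorama names. Which naming is closer to the cells was not tested.

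Cx3cr1_hi M2 macrophages showed the same kind of split. BBKNN gave that name to 30.4%, 22.0% and 27.0% of the Harmony cells at 2 dpi and to 76.9%, 54.6%, 88.9% and 87.5% at 3.5 dpi, and called 48.3%, 54.7% and 43.5% infiltrating monocytes at 2 dpi but under 1% in each 3.5 dpi mouse. By BBKNN's own names the type made up 5.70%, 4.28% and 9.90% of immune cells at 2 dpi and 26.7%, 16.7%, 34.3% and 32.0% at 3.5 dpi. The groups were farther apart than with Harmony, in the same direction (limma adjusted p = 5.04e-05 with BBKNN names). Inflammatory monocytes also kept their direction, with 17.7%, 16.4% and 7.01% against 3.03%, 5.38%, 3.37% and 5.58% by BBKNN (limma adjusted p = 0.00316) and with 21.3%, 22.5% and 13.7% against 2.94%, 5.63%, 2.80% and 5.14% by Scanorama (limma adjusted p = 0.000194).

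**Figure D2:**
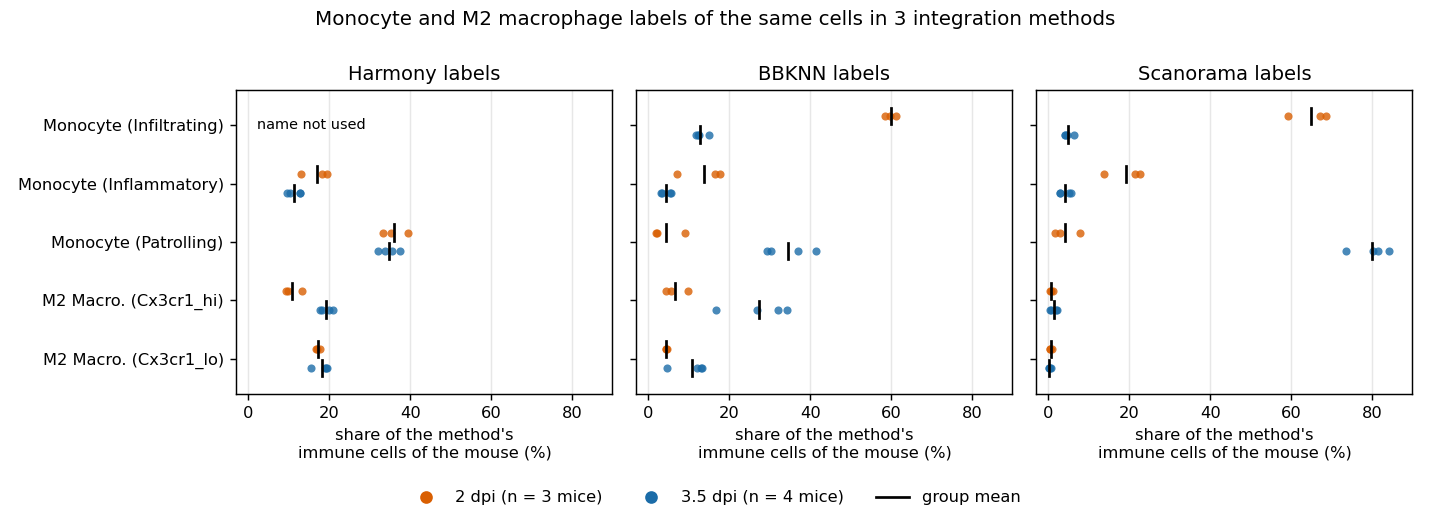
Share of 5 monocyte and M2 macrophage names among the immune cells of a mouse, in percent, by Harmony (left), BBKNN (middle) and Scanorama (right), with 1 point per mouse (2 dpi, n = 3; 3.5 dpi, n = 4) and black bars at the group means. Patrolling monocytes had means of 36.0% and 34.7% by Harmony, 4.31% and 34.5% by BBKNN, and 4.08% and 79.9% by Scanorama at 2 and 3.5 dpi.

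Outside the immune compartment, the 3.5 dpi muscles held myogenic progenitors that were close to absent at 2 dpi. Myoblasts/progenitors rose from 0.246% ± 0.00913 (SD, n = 3) to 11.5% ± 4.19 (SD, n = 4) of non-immune cells and adipogenic FAPs rose by 4.29 percentage points, while neural cells, capillary and arterial endothelium and smooth muscle fell. Of 13 non-immune types, 6 passed the limma test (46.2% of the types tested), 2 higher (15.4%) and 4 lower (30.8%), and the same number did not overlap between groups (46.2%). These are shares, so that a gain of one type lowers the others, and numbers of cells per muscle were not measured. With all cells of the mouse as denominator, 4 types were called, 4 higher and 0 lower, and the vessel and neural falls were not among them.

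Myoblasts/progenitors are the dividing and differentiating offspring of MuSCs. Their share was 0.241%, 0.241% and 0.257% at 2 dpi and 7.32%, 8.58%, 16.1% and 13.9% at 3.5 dpi. Only 9 such cells were found at 2 dpi (4, 2 and 3 per mouse), compared with 426 at 3.5 dpi (61, 62, 192 and 111). The groups were far apart, and replicates C and D at 3.5 dpi were higher than A and B (limma adjusted p = 0.000767; exact permutation p = 0.0286). The rise was called in 18 of 19 alternatives, the exception being the exact test adjusted over all types (adjusted p = 0.0619, the highest of the range from 5.60e-07). The other methods divide these cells otherwise. BBKNN has 2 myoblast names, and neither passed the test, with means of 0.336% and 0.181% for the larger (limma adjusted p = 0.372) and 0.0205% and 0% for the smaller (0.602). Committed progenitors, a name in both methods that also took in the Harmony MuSCs of 3.5 dpi, were 0.308%, 0.359% and 0.341% against 12.3%, 15.2%, 34.5% and 28.6% by BBKNN (limma adjusted p = 0.00297) and 1.34%, 2.33% and 1.29% against 13.3%, 17.7%, 35.8% and 29.6% by Scanorama (limma adjusted p = 0.00479).

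MuSCs, the stem cells from which new fibers form, were 6.27%, 3.61% and 1.88% of non-immune cells at 2 dpi and 4.80%, 6.22%, 17.4% and 13.7% at 3.5 dpi. Replicates C and D at 3.5 dpi were above the rest and the other mice overlapped (3.92% ± 2.21, SD, n = 3, and 10.5% ± 6.01, SD, n = 4; limma adjusted p = 0.0898, exact permutation p = 0.200). The type passed the test with a stricter filter on cells (8.64 points, limma adjusted p = 0.00765), with all cells as denominator (0.0383) and without 2 dpi replicate A (0.0496). That filter asks for 1000 genes, and median genes of MuSCs were 678, 748.5 and 669.5 at 2 dpi and 3469.5 to 4552 at 3.5 dpi. It takes out most MuSCs of each 2 dpi mouse, so that a larger rise with it is not separate support. MuSCs also passed when only cells in the same broad class by BBKNN were kept, an alternative chosen after seeing the data (limma adjusted p = 0.00832, range over the alternatives 0.00765 to 0.626). The other methods gave the MuSC name to few cells, without a rise. Means at 2 and 3.5 dpi were 0.117% and 0.0828% by BBKNN (limma adjusted p = 0.626) and 0.0213% and 0% by Scanorama (0.523). With myoblasts/progenitors added, the share of both Harmony names was 6.51%, 3.86% and 2.14% at 2 dpi and 12.1%, 14.8%, 33.5% and 27.6% at 3.5 dpi, without overlap. At 2 dpi, BBKNN gave a myogenic name to only 22 of the 156 Harmony MuSCs (14.1%), as described below.

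Most vessel cells took a smaller share at 3.5 dpi. Capillary endothelial cells, which line the exchange vessels around fibers, were 34.7%, 43.7% and 56.8% at 2 dpi and 25.3%, 32.1%, 15.9% and 20.3% at 3.5 dpi. The groups did not overlap, and 2 dpi replicate A lay just above 3.5 dpi replicate B (45.1% ± 11.2, SD, n = 3, and 23.4% ± 6.93, SD, n = 4; limma adjusted p = 0.0256). Arterial endothelial cells were 5.24%, 4.94% and 6.85% against 3.0%, 3.60%, 1.68% and 2.12% (limma adjusted p = 0.0376). Smooth muscle cells, the contractile coat of arteries, were 4.70%, 9.28% and 7.36% against 2.40%, 3.87%, 1.51% and 4.12% (limma adjusted p = 0.0412). Every 3.5 dpi mouse was below every 2 dpi mouse in these 3 types (exact permutation p = 0.0286 for each). Venous endothelial cells, at 2.27% ± 1.03 (SD, n = 3) and 1.24% ± 0.350 (SD, n = 4), overlapped and did not pass (limma adjusted p = 0.221).

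The vessel calls were near the threshold and depended on the denominator. With all cells of the mouse in it, capillary cells differed by -5.76 points (limma adjusted p = 0.209), arterial cells by -0.780 points (0.203) and smooth muscle cells by -1.0 points (0.149). All 3 were also lost with log odds (0.0521, 0.0523 and 0.0523), edgeR with TMM (0.0731, 0.0731 and 0.102) and edgeR without it (0.0649 for arterial and smooth muscle cells, 0.0670 for capillary cells), and capillary cells with all 21 mice in the fit (0.0514). With Scanorama names the smooth muscle difference shrank to -0.657 points (limma adjusted p = 0.253). Capillary cells missed it without 2 dpi replicate B (limma adjusted p = 0.0532), 2 dpi replicate C (0.0612), 3.5 dpi replicate C (0.0774) or D (0.0615), in a range of 0.00397 to 0.209. Arterial cells missed it without those 4 mice (0.0532, 0.0612, 0.0774 and 0.104) and without 3.5 dpi replicate A (0.0524), in a range of 0.00297 to 0.301. Smooth muscle cells missed it without any 1 mouse other than 2 dpi replicate A: 0.144 and 0.0854 without 2 dpi replicates B and C, and 0.0703, 0.0552, 0.0903 and 0.0615 without 3.5 dpi replicates A to D (limma adjusted p, range 0.0107 to 0.253). Leaving MuSCs and myoblasts/progenitors out of the denominator, an alternative chosen after seeing the data, capillary cells fell by 17.2 points and arterial cells fell by 2.64 points, both still called, whereas smooth muscle cells were not (limma adjusted p = 0.0699).

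Neural cells, which in dissociated muscle are mostly glia of nerve branches, were 4.64%, 4.70% and 5.05% of non-immune cells at 2 dpi and 1.56%, 1.94%, 0.923% and 1.37% at 3.5 dpi. The 2 dpi mice were close together and all 3.5 dpi mice were lower, a ratio of 0.302 (4.80% ± 0.222, SD, n = 3, and 1.45% ± 0.421, SD, n = 4; limma adjusted p = 0.00843, exact permutation p = 0.0286). There were 77, 39 and 59 neural cells per mouse at 2 dpi and 13, 14, 11 and 11 at 3.5 dpi. The fall was called without any 1 of the 7 mice and with the names of both other methods. It was not called with all cells as denominator (limma adjusted p = 0.0583) or with the letter as a replicate block (0.203, range over the alternatives 0.00174 to 0.203).

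Among FAPs, which give rise to fibroblasts and fat cells and feed MuSCs with growth signals, the adipogenic subtype was 6.75%, 6.63% and 2.57% at 2 dpi and 9.48%, 8.99%, 10.1% and 9.86% at 3.5 dpi. All 3.5 dpi mice lay above all 2 dpi mice and close together (5.32% ± 2.38, SD, n = 3, and 9.60% ± 0.473, SD, n = 4; limma adjusted p = 0.0422, exact permutation p = 0.0286). The call held only without 2 dpi replicate A among the single mice left out, and was lost without 2 dpi replicates B and C (limma adjusted p = 0.0532 and 0.0599) and without 3.5 dpi replicates A to D (0.0703, 0.0768, 0.0903 and 0.104). It was also lost with log odds (limma adjusted p = 0.0780), edgeR with TMM (0.102) and without it (0.150) and all 21 mice in the fit (0.277; range over the alternatives 0.00210 to 0.277). With BBKNN names the difference turned to -2.88 points and with Scanorama names it was a rise of 26.1 points, since Scanorama gave most 3.5 dpi FAPs the adipogenic name.

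Pro-remodeling FAPs were 21.3%, 10.6% and 1.80% at 2 dpi and 23.4%, 19.5%, 22.3% and 23.7% at 3.5 dpi. The 3.5 dpi mice were alike, whereas the 2 dpi mice ran from 1.80% in replicate C to a value in replicate A inside the later range (limma adjusted p = 0.0747, exact permutation p = 0.0571). Without 2 dpi replicate A the type passed (limma adjusted p = 0.00397; range over the alternatives 0.00397 to 0.739). It also passed with all cells as denominator (limma adjusted p = 0.0303) and with BBKNN names (0.0436), by which it was 22.6%, 15.3% and 0.937% against 33.8%, 29.5%, 34.9% and 34.8%. All FAPs together were 36.4%, 22.4% and 4.97% at 2 dpi and 38.5%, 33.5%, 37.7% and 37.5% at 3.5 dpi, so that 2 dpi replicate C was low in every FAP subtype. Tenocytes, stem FAPs and type IIb and IIx myonuclei overlapped between groups, with limma adjusted p between 0.470 and 0.980. By BBKNN names tenocytes were called lower, with means of 3.0% and 0.757% and no overlap (limma adjusted p = 0.0290).

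How many non-immune types were called depended on single mice, with 2 without 2 dpi replicate B, 2 dpi replicate C, 3.5 dpi replicate C or 3.5 dpi replicate D and 3 without 3.5 dpi replicate A, in place of 6. Among immune types, 2 were called without 2 dpi replicate A and 1 without 2 dpi replicate B, 3.5 dpi replicate A or 3.5 dpi replicate B, in place of 4. With 4 against 3 mice the exact test cannot pass a threshold of 0.05 after adjustment over 10 or 13 types unless most types reach its smallest p. It called 0 types in either compartment, with 3 and 6 types at an unadjusted exact p under 0.05, and edgeR's quasi-likelihood test with TMM called 1 and 2.

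Set in the whole time course, the mean shares of myoblasts/progenitors and Cx3cr1_hi M2 macrophages were highest at 3.5 dpi. Myoblasts/progenitors were 0.0783% of non-immune cells in uninjured mice and 0.148% at 1 dpi, and 5.00% and 3.37% at 5 and 7 dpi, all below the 3.5 dpi mean of 11.5%. Cx3cr1_hi M2 macrophages were 5.45%, 8.50%, 16.2% and 11.5% of immune cells in uninjured mice and at 1, 5 and 7 dpi, again below the 3.5 dpi mean of 19.2%. By mouse, 5 dpi (13.8% to 18.0%) overlapped 3.5 dpi (17.7% to 20.9%) in this type. Neutrophils went from 18.2% of immune cells on day 1 to 3.40% and 1.32% in the 2 groups compared here, with 1.17% by day 5, 1.65% by day 7 and 9.21% in uninjured mice. T cells made up 17.5% before injury, 1.85% on day 1, 1.71% and 3.82% in these groups, and 19.5% and 33.5% on days 5 and 7, so that the means of both groups were far below that of uninjured muscle. These means over 3 or 4 mice are given as context and were not tested.

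Within cell types, UMIs and genes per cell passed the test in few types. Medians over the cells of a type were taken in each mouse, for the 18 types with at least 10 cells in every mouse. MuSCs, adipogenic FAPs and tenocytes rose in both UMIs and genes, and pro-remodeling FAPs rose in UMIs but did not pass in genes. Most 2 dpi cells with the MuSC name had immune names in BBKNN, and the FAP and tenocyte calls were lost relative to the level of the mouse, as given below. In all, 7 of 36 type and measure pairs were called (limma on log2 medians; 19.4% of those tested), all of them higher, and 8 pairs did not overlap (22.2%). No immune or endothelial type was called in either measure. Here too limma gave all types 1 common spread for UMIs and 1 for genes, so that very small p values from 7 mice can be too small for types that vary more.

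The largest difference was in MuSCs. Their median was 1377, 1774 and 2279 UMIs at 2 dpi and 16271, 20888, 14012 and 13198 UMIs at 3.5 dpi, and 678, 748.5 and 669.5 genes against 3956, 4552, 3939 and 3469.5 genes. Neither measure overlapped between the groups, and the fitted ratio was 8.93 for UMIs and 5.68 for genes (log2 fold change 3.16 ± 0.38, SE, limma adjusted p = 1.10e-11, and 2.50 ± 0.24, SE, limma adjusted p = 6.37e-16; exact permutation p = 0.0286 for both). Both calls held in every alternative that kept the type other than the exact test adjusted over all pairs. The 95% interval of the UMI difference was 2.42 to 3.90 on the log2 scale.

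The cells named MuSCs by Harmony were not the same kind of cells at the 2 time points by the other methods. At 3.5 dpi, BBKNN gave a myogenic name to 399 of 402 (99.3%) and Scanorama to 400 (99.5%). The BBKNN name was committed progenitor for 396 of the 402 (98.5%) and MuSC for 3 (0.746%). At 2 dpi, BBKNN gave a myogenic name to 22 of 156 (14.1%) and an immune name to 114 (73.1%), 98 of them infiltrating monocyte, and Scanorama gave a myogenic name to 30 (19.2%). In single 2 dpi mice, 69.2%, 60.0% and 36.4% of the MuSCs were infiltrating monocytes to BBKNN. The name MuSC is therefore contradicted by both other methods for most 2 dpi cells, and differences between the 2 dpi and 3.5 dpi MuSCs are differences between cells given that name by Harmony.

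Cells of low content made up most of them at 2 dpi. Under 750 genes were detected in 69.2%, 50% and 54.5% of MuSCs at 2 dpi and in 2.50%, 0%, 1.93% and 4.55% at 3.5 dpi, without overlap. The 22 cells with a myogenic BBKNN name at 2 dpi had a median of 1810 UMIs and 811.5 genes, and the other 134 had 1457 UMIs and 681.5 genes. Both were far below the 14421 UMIs and 3860 genes of the 399 BBKNN-myogenic MuSCs at 3.5 dpi. The difference in UMIs and genes was thus present, over few cells and without a test, among cells that both methods named myogenic. The part that cell naming, cell quality and RNA content had in it was not tested.

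Adipogenic FAPs had a median of 7863, 6094 and 5279 UMIs at 2 dpi and 22750, 22522, 16092 and 17305 UMIs at 3.5 dpi. The lowest 3.5 dpi mouse was above the highest 2 dpi mouse, with a fitted ratio of 3.07 (log2 fold change 1.62 ± 0.38, SE; limma adjusted p = 0.000508). Their genes, 2839, 2200 and 1919.5 against 4776, 4659, 4219 and 4213, did not overlap either (log2 fold change 0.96 ± 0.24, SE; limma adjusted p = 0.000875). Tenocytes, the matrix-producing cells of tendon, had 5542, 8780.5 and 4741 UMIs against 17616, 24929, 17978 and 11848 UMIs (log2 fold change 1.51 ± 0.38, SE; limma adjusted p = 0.000875), and 2186, 2846 and 1889 genes against 4154, 5290.5, 4544 and 3348 genes (log2 fold change 0.91 ± 0.24, SE; limma adjusted p = 0.00132). Again every 3.5 dpi mouse was above every 2 dpi mouse. Tenocytes were few, with 14 to 41 cells per mouse.

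Pro-remodeling FAPs, the subtype associated with matrix remodeling, had 11332, 15685 and 5799.9 UMIs against 22362, 23926, 18790.1 and 20523 UMIs. The groups did not overlap, and 2 dpi replicate C, with 21 such cells, was the lowest (log2 fold change 1.08 ± 0.38, SE; limma adjusted p = 0.0268). The call was lost with means over cells (limma adjusted p = 0.103), with the same broad class in all 3 methods (0.0529), without 2 dpi replicate C (0.104) and without 3.5 dpi replicates A (0.0868), B (0.0785) or D (0.0833), in a range over the alternatives of 0.00663 to 0.459. Their genes, 3473, 4277 and 2465 against 4772, 4955, 4650.5 and 4535, did not overlap but were not called (limma adjusted p = 0.137). FAP names also differed between methods by day. Scanorama called 61.9%, 65.9% and 14.3% of the pro-remodeling FAPs tenocytes at 2 dpi and 1.54%, 4.96%, 3.38% and 4.21% at 3.5 dpi, without overlap, and 54.5%, 41.8% and 0% of the adipogenic FAPs against 3.80%, 6.15%, 4.17% and 6.33%.

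Myeloid cells, which are the most numerous, overlapped between the days in UMIs. Patrolling monocytes had 6689.6, 12908 and 16997 UMIs at 2 dpi and 21448, 23678, 12558 and 15157 UMIs at 3.5 dpi (log2 fold change 0.63, 95% interval -0.10 to 1.37; limma adjusted p = 0.215). Replicate A at 2 dpi was low and replicate C at 2 dpi was above 3.5 dpi replicates C and D. Without 2 dpi replicate C the type was called (limma adjusted p = 0.0312; range over the alternatives 0.0312 to 0.932). Cx3cr1_lo M2 macrophages had 4547, 9884 and 14903 UMIs against 12447, 13471, 8627 and 10160.2 UMIs (log2 fold change 0.33, 95% interval -0.41 to 1.07), and inflammatory monocytes 3568, 6497 and 9886 UMIs against 10276, 10202, 6179.9 and 7186 UMIs (0.43, -0.30 to 1.17). Within both types the 2 dpi mice covered the range of the 3.5 dpi mice or nearly so.

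Genes ranked the mice as UMIs did in patrolling monocytes, while some mice changed places in the other types. Patrolling monocytes had 2299, 3339.5 and 3866 genes against 4099, 4299, 3290 and 3429. Cx3cr1_lo M2 macrophages had 1812, 2944 and 3634 against 3254, 3382, 2679 and 2833. Inflammatory monocytes had 1551, 2274 and 2835 against 2750, 2758, 2173 and 2228. None of the 3 types was called (limma adjusted p = 0.434, 0.655 and 0.603). Capillary endothelial cells had 2419, 3438 and 2300.3 UMIs against 2733, 3604, 3111 and 4720.0 UMIs (limma adjusted p = 0.527) and 1310, 1694 and 1206 genes against 1386, 1698, 1520 and 1906 genes (0.560). The groups overlapped in both. Over all 18 types, UMIs were higher at 3.5 dpi in 17 and genes in 16, with a median log2 fold change of 0.54 and 0.31, and smooth muscle was the type with lower UMIs (log2 fold change -0.22).

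**Figure D3:**
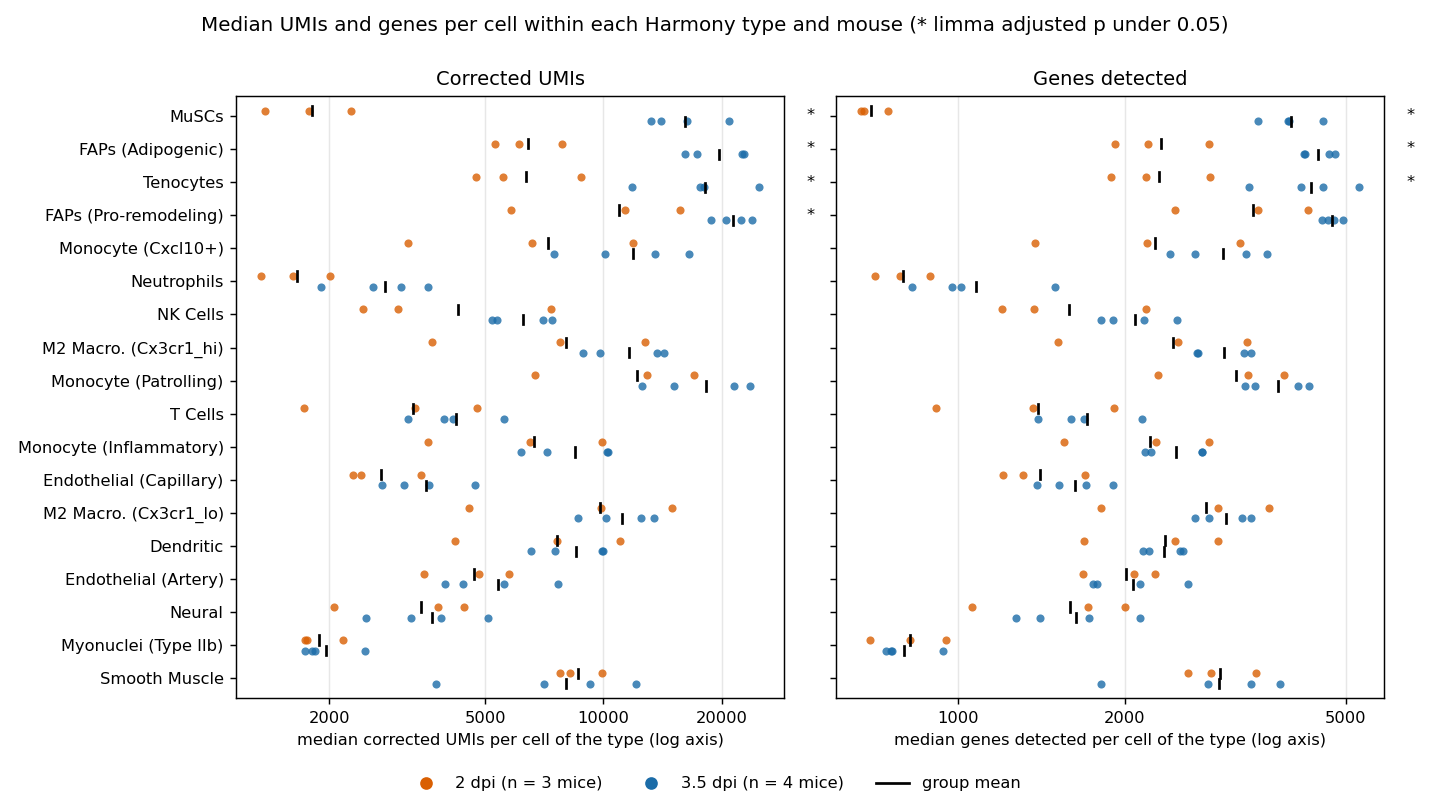
Median corrected UMIs (left) and genes detected (right) per cell of each Harmony type, on log axes, with 1 point per mouse (2 dpi, n = 3; 3.5 dpi, n = 4), black bars at the group means and asterisks at a limma adjusted p under 0.05. MuSCs went from 1377 to 2279 UMIs at 2 dpi to 13198 to 20888 at 3.5 dpi, while the 2 dpi and 3.5 dpi points of immune types were mixed.

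The stromal calls were also weighed against the level of the whole mouse. When each mouse's mean over types was subtracted, MuSCs kept both calls and the other 5 were lost, with limma adjusted p of 0.0560 for UMIs and 0.0809 for genes in adipogenic FAPs, 0.0809 and 0.109 in tenocytes and 0.459 for UMIs in pro-remodeling FAPs. With genes divided by the sequencing saturation of the sample, a depth correction that the study used, the gene calls of adipogenic FAPs (limma adjusted p = 0.0938) and tenocytes (0.0890) were lost as well, at log2 fold changes of 1.02 ± 0.37 (SE) and 0.97 ± 0.33 (SE) that were no smaller than without it. The same correction added calls for genes in Cx3cr1_hi M2 macrophages (limma adjusted p = 0.0156) and Cxcl10+ monocytes (0.00638), so that 7 pairs were again called. Leaving out 2 dpi replicate C, the 2 dpi mouse with the deepest reads per cell, raised the number of calls from 7 to 16. The exact test adjusted over 36 pairs called 0, with 8 at an unadjusted exact p under 0.05. Reads per cell and UMIs per cell were ordered alike in some of these types and mice and not in others. Within 2 dpi, the mice ordered by reads per cell had rising medians in MuSCs (1377, 1774 and 2279 UMIs) and falling ones in adipogenic FAPs (7863, 6094 and 5279 UMIs), and within 3.5 dpi the mice with the most reads per cell, replicates A and B, were the highest in MuSCs and adipogenic FAPs. Across groups, at 57751 reads per cell, 2 dpi replicate C had 5279 UMIs in adipogenic FAPs and 2279 in MuSCs, whereas 3.5 dpi replicates C and D, at 30251 and 34070 reads per cell, had 16092 and 17305 in the first type and 14012 and 13198 in the second. These mice were picked after their values were seen, and the part of depth in the calls was not tested.

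Gene class percents give the share of a cell's UMIs in a set of genes. Of 198 type and percent pairs, 5 were called (limma per percent; 2.53% of those tested), 3 higher at 3.5 dpi (1.52%) and 2 lower (1.01%), and 41 did not overlap between the groups (20.7%). With the same broad class in all 3 methods, 4 of 187 were called, 0 higher and 4 lower, and with the stricter filter on cells 0 higher and 2 lower of 143. MuSCs, which held all 3 higher calls, had too few cells to enter either of these, and most of them had immune names in BBKNN at 2 dpi. In MuSCs, the percents of ribosomal protein genes, of protein-coding genes and of the set labelled bplncRNA rose, and the percent of transcription factor genes fell in neutrophils and in tenocytes.

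Ribosomal protein transcripts, which scale with the protein synthesis of growing cells, were 4.91%, 8.22% and 9.98% of MuSC UMIs at 2 dpi and 21.7%, 20.6%, 19.5% and 21.2% at 3.5 dpi. Every 3.5 dpi mouse had about the same value, far above the 2 dpi mice, a difference of 13.0 percentage points (limma adjusted p = 0.00105; exact permutation p = 0.0286). At 2 dpi the percent also differed by BBKNN name. The 22 MuSCs at 2 dpi with a myogenic BBKNN name had a median of 21.9%, the other 134 had 4.87%, and the 399 at 3.5 dpi had 20.2%. Among cells that both methods named myogenic, the ribosomal percent was therefore no lower at 2 dpi, in contrast to the UMIs.

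Protein-coding genes took 87.6%, 86.9% and 88.7% of MuSC UMIs at 2 dpi and 92.6%, 93.0%, 93.7% and 94.2% at 3.5 dpi, without overlap (limma adjusted p = 0.00389). This call was lost without the mouse with the most cells of each group (0.0547; range over the alternatives 0.000834 to 0.153). The bplncRNA set had a median of 0% in MuSCs of each 2 dpi mouse and 0.0195%, 0.0151%, 0.0161% and 0.0153% at 3.5 dpi (limma adjusted p = 0.00442), and with the mean over cells in place of the median its difference was -0.00301 points (0.174; range over the alternatives up to 0.315). A median of 0% says that under 1 in 2 cells held a UMI of the set, and the 2 dpi cells had few UMIs. MuSC mitochondrial percents, a sign of stressed or damaged cells, were 20.3%, 19.9% and 12.9% against 11.8%, 12.1%, 11.1% and 11.4%. They did not overlap and missed the threshold (limma adjusted p = 0.0753), which they passed on the arcsine scale (0.0420) and without 2 dpi replicate C (0.000137), the 2 dpi mouse closest to the later group. By BBKNN name, the median was 14.3% in the 22 myogenic MuSCs at 2 dpi and 19.8% in the other 134. The 399 myogenic ones at 3.5 dpi had 11.3%.

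Transcription factor genes, which encode the regulators of other genes, took 5.96%, 6.55% and 5.57% of neutrophil UMIs at 2 dpi and 3.23%, 3.62%, 4.55% and 4.67% at 3.5 dpi (limma adjusted p = 0.00442). In tenocytes they took 5.10%, 4.94% and 5.32% against 4.15%, 3.25%, 3.19% and 3.76% (limma adjusted p = 0.00442). Both types had all 3.5 dpi mice below all 2 dpi mice. In neutrophils the 2 higher mice of the 3.5 dpi group, replicates C and D, were those with 13.7% and 45.2% of the cells named neutrophils by BBKNN. At 2 dpi, 17.8%, 88.7% and 91.7% were so named in replicates A to C, and replicate A lay between replicates B and C in the transcription factor percent. Both calls were lost without the mouse with the most cells of each group, an alternative chosen after seeing the data (limma adjusted p = 0.128 for each, the range over the alternatives reaching 0.153), and the tenocyte call with all 21 mice in the fit (0.0511). Over all types the percent was lower at 3.5 dpi in 17 of 18, by a median of -0.628 points, with 10 types at an unadjusted limma p under 0.05.

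Mitochondrial and ribosomal percents of the most abundant myeloid types overlapped between the 2 time points. In patrolling monocytes, mitochondrial percents were 3.98% ± 0.266 (SD, n = 3) and 4.26% ± 0.592 (SD, n = 4) and ribosomal percents 9.15% ± 0.306 and 9.42% ± 0.521. Cx3cr1_lo M2 macrophages had 5.42% ± 0.708 and 5.51% ± 1.07 for the mitochondrial and 9.81% ± 0.588 and 10.7% ± 0.504 for the ribosomal set. Inflammatory monocytes had 4.80% ± 0.195 and 3.92% ± 0.800, and 10.8% ± 0.759 and 11.7% ± 0.936. None of the 3 types was called in either set (limma adjusted p from 0.342 to 0.941).

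Capillary endothelial cells had mitochondrial percents of 8.24% ± 1.62 (SD, n = 3) and 6.43% ± 0.459 (SD, n = 4), with every 3.5 dpi mouse below every 2 dpi mouse but no call (limma adjusted p = 0.228), and ribosomal percents of 8.26% ± 1.36 and 10.4% ± 1.19 (0.197). Pro-remodeling FAPs had 6.19% ± 1.53 and 4.69% ± 0.503 for the mitochondrial and 13.6% ± 2.40 and 15% ± 0.833 for the ribosomal set, both overlapping. Over the 18 types, mitochondrial percents were lower at 3.5 dpi in 13 and ribosomal percents higher in 16, with 4 and 5 types that did not overlap.

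Protein-coding percents were higher at 3.5 dpi in 18 of 18 types, without overlap in 9. In patrolling monocytes they were 94.3% ± 0.193 and 95.2% ± 0.199, in inflammatory monocytes 93.4% ± 0.276 and 94.2% ± 0.287, and in Cx3cr1_lo M2 macrophages 93.5% ± 0.0801 and 93.6% ± 0.626 (SD, n = 3 and 4). Capillary endothelial cells had 88.2% ± 2.76 and 91.0% ± 1.39, and pro-remodeling FAPs 91.6% ± 2.77 and 94.1% ± 0.487. Differences between the days were 0.912, 0.865 and 0.109 points in these myeloid types and 2.80 and 2.48 points in the 2 non-immune types, compared with 5.64 points in MuSCs. Of the 18 types, 10 had an unadjusted limma p under 0.05 and MuSCs were the 1 type called.

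Transcription factor percents in the most abundant types were 2.71% ± 0.115 and 2.30% ± 0.188 in patrolling monocytes, where the groups did not overlap, 3.03% ± 0.218 and 3.05% ± 0.10 in Cx3cr1_lo M2 macrophages and 3.75% ± 0.316 and 3.33% ± 0.308 in inflammatory monocytes. Capillary endothelial cells had 5.41% ± 0.0742 and 4.86% ± 0.617, pro-remodeling FAPs 3.75% ± 0.488 and 3.64% ± 0.195, and MuSCs 4.30% ± 1.29 and 2.82% ± 0.183 (SD, n = 3 and 4). MuSCs were not called in the chosen fit (limma adjusted p = 0.0701). They were called with means over cells (0.0137), on the arcsine scale (0.00254) and without 2 dpi replicate B (0.0330) or 2 dpi replicate C (0.000482, limma adjusted p, range over the alternatives up to 0.246). At 2 dpi the 22 MuSCs with a myogenic BBKNN name had a median of 3.19%, and the other 134 had 5.27%. The 399 with such a name at 3.5 dpi had 2.86%.

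Heat shock protein genes, which encode chaperones induced by stress, were called in no type, and the groups did not overlap in 5 types, 2 of them higher at 3.5 dpi. Their percents were 0.944%, 0.754% and 0.535% in MuSCs at 2 dpi and 1.06%, 1.12%, 1.14% and 1.21% at 3.5 dpi, and 1.08%, 0.995% and 0.855% against 0.706%, 0.778%, 0.712% and 0.788% in pro-remodeling FAPs. Neither overlapped between groups and neither was called (limma adjusted p = 0.0639 and 0.0755), although MuSCs passed without 2 dpi replicate A (0.0120) or the mouse with the most cells of each group (0.0377) and pro-remodeling FAPs without 2 dpi replicate C (0.0125). Inflammatory monocytes had 0.757% ± 0.0919 and 0.627% ± 0.0207, and Cx3cr1_lo M2 macrophages 0.649% ± 0.0472 and 0.546% ± 0.0173, both without overlap and without a call (0.197 and 0.198). Tenocytes, chosen after their values were seen, had 0.629% ± 0.0677 and 0.754% ± 0.0421 without overlap (limma adjusted p = 0.197). Patrolling monocytes had 0.570% ± 0.0413 and 0.524% ± 0.0296 and capillary endothelial cells 0.930% ± 0.226 and 0.983% ± 0.0724, with overlap.

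Long intergenic noncoding RNAs took 3.03%, 1.64% and 2.09% of MuSC UMIs at 2 dpi and 0.806%, 0.856%, 0.820% and 0.580% at 3.5 dpi. All 3.5 dpi mice were lower, with no call in the chosen fit (limma adjusted p = 0.0621). The set was called with means over cells (0.0490), on the arcsine scale (0.0174), with all 21 mice in the fit (0.0131) and without 2 dpi replicate A (0.0247) or 2 dpi replicate B (0.0305; limma adjusted p, range over the alternatives up to 0.315). In the other 5 most abundant types the groups overlapped, with means from 1.01% to 1.73% at 2 dpi and from 0.929% to 1.91% at 3.5 dpi. Small nucleolar and micro RNA genes, of which a poly-A method catches few molecules, were lower at 3.5 dpi in 15 and 17 of the 18 types. In MuSCs their percents were 0.0128% ± 0.00516 and 0.00359% ± 0.000769 for the nucleolar set and 0.0160% ± 0.0110 and 0.00265% ± 0.000628 for the micro RNA set, both without overlap. Neither was called in the chosen fit (limma adjusted p = 0.0755 and 0.161). The first was called on the arcsine scale (0.0338) and without 2 dpi replicate B (0.00823), and the second with all 21 mice in the fit (0.0146) and without 2 dpi replicate C (0.000834).

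Small nuclear RNA genes were called in no type by limma, with 0 types at an unadjusted p under 0.05, and the same held for antisense genes. In patrolling monocytes the antisense percents were 0.0485% ± 0.00750 and 0.0442% ± 0.00474 (SD, n = 3 and 4) and the small nuclear RNA percents 0.00196% ± 0.000448 and 0.00178% ± 0.000123. Differences of the 6 most abundant types lay between -0.00434 and 0.00779 points for the antisense set and between -0.00150 and 7.30e-06 points for the small nuclear RNA set. The bplncRNA set differed by -0.00513 to 0.00762 points in the 5 of these types other than MuSCs. Without 2 dpi replicates A, B or C the number of called pairs over all percents was 10, 9 and 16, in place of 5, and the exact test adjusted over 198 pairs called 0, with 37 at an unadjusted exact p under 0.05.

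Myogenic states, given by the position of a cell on a trajectory from quiescent MuSC to fusing myocyte, could be compared only over few 2 dpi cells. A state was given to 7.41%, 12.5% and 24.0% of MuSCs and myoblasts/progenitors at 2 dpi and to 78.2%, 82.2%, 76.2% and 78.7% at 3.5 dpi, without overlap. That left 20 of 165 cells at 2 dpi and 647 of 828 at 3.5 dpi. The 20 cells were 8 quiescent MuSCs, 7 activated MuSCs, 2 committed myoblasts and 3 fusing myocytes, and the 647 cells were 246, 154, 60 and 187 of these states.

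Quiescent MuSCs, which rest outside the cell cycle, were 27.5%, 32.6%, 42.8% and 37.4% of the cells with a state at 3.5 dpi. Activated MuSCs, which have reentered it, were 31.3%, 29.2%, 22.4% and 20.1%. Fusing myocytes, which join into new fibers, were 31.3%, 19.1%, 29.3% and 32.2%, and committed myoblasts, the step before, 10.0%, 19.1%, 5.59% and 10.3%. Cells with the quiescent state and cells with the fusing state thus both occurred in every 3.5 dpi mouse. Committed myoblasts were the smallest group in each or shared that place with fusing myocytes in replicate B. The states are positions on the trajectory, and BBKNN named 396 of the 402 Harmony MuSCs at 3.5 dpi committed progenitors and 3 MuSCs. Whether cells with the quiescent state were at rest was not tested. At 2 dpi the states of 4 to 9 cells per mouse gave no usable share, as in replicate B, where 2 of 4 cells were quiescent (exact Clopper-Pearson 95% interval 6.76% to 93.2%, counting error only). Among cells with a state, no state differed in share by the exact permutation test (adjusted p = 0.400 for quiescent, 0.457 for activated, 0.857 for committed and 0.400 for fusing cells, with 0 of 4 at an unadjusted p under 0.05). Taken of all cells with a myogenic Harmony name, type IIb and IIx myonuclei included and with or without a state, mean shares at 2 and 3.5 dpi were 2.12% and 20.9% for quiescent, 1.67% and 14.3% for activated, 0.629% and 6.40% for committed and 0.641% and 16.1% for fusing cells. On this wider denominator the difference for quiescent cells was 18.8 points, and among cells with a state it was -7.01 points. None of the 4 passed (exact permutation test, adjusted p = 0.0762, 0.0571, 0.0857 and 0.0571, with activated and fusing cells at an unadjusted 0.0286), and few cells had a state at 2 dpi.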

How the data were processed

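The authors aligned 10x reads to mm10 with Cell Ranger 3.1.0, and the deposited UMIs per cell are expected counts, because ambient RNA had been subtracted with SoupX before deposit. The number of genes detected per cell and the percent of a cell's corrected UMIs in each of 11 gene sets were deposited by the authors, who removed poor cells with Seurat (3.1.5 in the sample records, a later version in the paper) and doublets with DoubletFinder. Read counts and the fraction of ambient UMIs per sample were deposited with each cell, and percents of reads in cells and sequencing saturation came from the same summaries of the authors. The authors described a filter at 750 genes, but 1341 deposited cells at 2 dpi and 376 at 3.5 dpi were under it, counted on the deposited genes, and none was removed here. The gene lists behind the percents are not given.

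The mouse was the unit. Shares were taken of the immune or the non-immune Harmony cells of a mouse and arcsine square root transformed. UMIs and genes were summarized as log2 medians and percents as medians over the cells of a type, or as means for the 3 sets whose median was 0% in most types (small nucleolar, micro and small nuclear RNA). The 5 types under 10 cells in a mouse were left out of these. Each family was fitted with limma 3.58.1 (R 4.3.3), with Benjamini-Hochberg adjustment and a threshold of 0.05, and read beside a two-sided exact permutation test. edgeR 4.0.16 served as an alternative, and Python 3.11.15 with pandas 2.3.3, numpy 2.4.6, scipy 1.17.1 and matplotlib 3.10.9 for the rest.

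Named with values in each mouse were the share types that were called, did not overlap or were among the 5 most abundant of their compartment. Within types, at most 5 rises and 5 falls were named, and always the 3 most abundant immune and the 3 most abundant non-immune types. Others are given by counts and ranges. Members and lists were chosen with earlier results of these data known.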

Additional observations from a re-analysis of the deposited data

Results flagged for a closer look

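A mouse was set aside for a closer look when a value of it lay far from those of the other mice of its group, in groups of 4 mice. The 2 dpi group, with 3 mice, was not screened in this way. Among 108 groups of values, 2 held such a mouse, and chance alone would mark about 1 in 20 groups. Both were 3.5 dpi replicate C, with Cx3cr1_lo M2 macrophages at 15.5% of its immune cells and NK cells at 3.05%. Both values are in the tests above.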

How the results depend on the processing

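With 3 and 4 mice, no called result held in every alternative, as the adjusted exact test called none. Of the 22 called results, 402 alternatives gave 273 unchanged calls, 126 weaker ones and 3 reversed directions; the 77 named results without a call gave 1355, of which 1232 were unchanged, 86 moved in size, 35 became calls and 2 reversed. The cause was not tested.

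Called immune types, 4 in the chosen test, were 2 with untransformed shares, 2 with log odds, 1 with edgeR and TMM, 2 with edgeR without TMM, 0 with the adjusted exact test, 1 with all cells as denominator, 1 with all 21 mice and 1 without the mouse with the most cells of each group, the last chosen after seeing the data. Leaving out single mice gave 1 to 4. Called non-immune types, 6, were 2 with log odds, 2 with edgeR and TMM, 2 with edgeR without TMM and 0 with the adjusted exact test, and 2 to 8 without single mice. With all cells as denominator they were 4, with 4 higher and 0 lower in place of 2 and 4.

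Calls for UMIs and genes, 7, were 2 of 16 with at least 30 cells and 4 of 34 with the same broad class in all 3 methods. MuSCs, with 2 of the 7 calls, had too few cells to enter either. In cells with 5000 to 10000 UMIs (a window that itself bounds the UMIs, so no test of them), calls were 0 of 14. They were 0 with the adjusted exact test, 2 relative to the mouse mean and 6 to 16 without single mice. Calls for percents, 5, were 11 with means over cells, 2 of 143 with a stricter filter on cells (0 higher, 2 lower), 4 of 187 with the same broad class in all 3 methods (0 higher, 4 lower), both without MuSCs for lack of cells, 1 of 77 in the UMI window, 0 with the adjusted exact test, 8 with all 21 mice, 14 on the arcsine scale and 5 to 16 without single mice.

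Among the named share types, differences turned with other cell type names for patrolling monocytes (30.2 points by BBKNN, 75.8 by Scanorama) and adipogenic FAPs (-2.88 by BBKNN). They also turned for T cells (-0.0413 by Scanorama), MuSCs (-0.0345 by BBKNN, -0.0213 by Scanorama) and Cx3cr1_lo M2 macrophages (-0.359 by Scanorama). The turns of MuSCs and Cx3cr1_lo M2 macrophages were not called and are counted above among those that moved. The bplncRNA percent of MuSCs turned to -0.00301 points with means. The immune share turned to -0.510 by BBKNN, -0.737 by Scanorama, -1.09 with the stricter filter and -0.476 without 3.5 dpi replicate C, and ran from -5.29 to 5.13 without single mice. Myogenic states had 3 calls with the stricter filter, where 4 cells at 2 dpi had a state, and 0 to 0 without single mice, where the smallest exact p (0.0667 or 0.1) allowed no call, so that this count says nothing on stability.

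With the letter as a replicate block, 3 immune types, 2 non-immune types, 6 UMI or gene pairs and 6 percents were called. The block ended the share calls of neural cells (limma adjusted p = 0.203), neutrophils (0.103), arterial cells (0.301), smooth muscle cells (0.195) and adipogenic FAPs (0.256), and those of UMIs in pro-remodeling FAPs (0.106) and of the bplncRNA percent in MuSCs (0.315). No label pairs mice by letter, and letters were not taken as pairs. For A, B and C, deviations of replicates with 1 letter correlated at -0.442, -0.506 and -0.671 in immune shares, -0.272, -0.154 and -0.474 in non-immune shares, -0.402, 0.474 and -0.292 in UMIs and -0.0851, 0.307 and -0.248 in mitochondrial percents. Which mice were collected on 1 day is not given.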
